A study of Mus musculus with 24 samples.

Results

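The genes described here encode the nuclear receptors for retinoic acid (Rara, Rarb, Rarg), the retinoid X receptors (Rxra, Rxrb, Rxrg), a carrier of retinol (Rbp4), a carrier of retinoic acid inside cells (Crabp1) and an enzyme that breaks retinoic acid down (Cyp26b1). They were taken by name: every probe set whose only gene symbol in the platform annotation is 1 of these 9 genes was included. This gave 12 probe sets of the 45037 on the array that are not controls, 34945 of which pair with a single symbol, and 9 of 18193 genes with such a probe set. Messenger RNA was measured in striatum and cerebellum of mice homozygous for the huntingtin knock-in allele Q111 (HdhQ111/HdhQ111) and of wild-type mice (Hdh+/Hdh+, given as Q7/Q7), on Affymetrix MG430 2.0 arrays.

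The 4 groups were Q111 striatum, wild-type striatum, Q111 cerebellum and wild-type cerebellum, with 6 arrays each and 24 in all. The age is given only as a range of 3 to 10 weeks. Sex and strain are not given in the sources used here, nor whether a mouse gave both tissues. The knock-in allele is in the germline, so every cell of the Q111 tissues carries it. The labels call the replicates biological without naming separate animals, so a p-value here reflects only how far these samples scatter.

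Retinoic acid is made inside cells from retinol, which travels in blood bound to the Rbp4 protein. It binds RAR receptors, which pair with RXR receptors on DNA and switch nearby genes on. CYP26 enzymes remove it, so that a cell's exposure is set by the balance of synthesis and breakdown. In the mouse brain the striatum is known for its RARB and RXRG, and striatal projection neurons depend on retinoic acid signals during their development.

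Values are log2 GCRMA values, so that 1 unit is a 2-fold difference. GCRMA removes background with a model of probe sequence, and values under about 4 lie close to background. Testing was limited to probe sets averaging 4 or more over the arrays of either tissue. Of the 45037, 20738 met this, among them 8 of the 12 here. The 8 kept probe sets stand for Rarb (1454906_at), Rarg (1419415_a_at), Rxra (1454773_at), Rxrb (1416990_at), Rxrg (1418782_at), Rbp4 (1426225_at), Crabp1 (1448326_a_at) and Cyp26b1 (1460011_at). Those of Rarb, Rxrg and Crabp1 were kept through striatum alone, so for them the filter itself favours a striatal signal.

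The 4 probe sets left out were the only one of Rara, the second of Rarg and 2 further ones of Rxra. The Rara probe set 1450180_a_at lay between 2.24 and 2.39 on all 24 arrays, and the Rarg probe set 1419416_a_at between 2.28 and 2.53. The Rxra probe set 1425762_a_at lay between 2.54 and 2.75, and 1430497_at between 1.89 and 1.95. Without the filter, the Rara probe set passed the test between tissues with differences, striatum minus cerebellum, of -0.04 in Q111 and -0.07 in wild type, and the Rxra probe set 1425762_a_at with 0.14 and 0.09. At these levels, close to background, the arrays give no usable measure of Rara, the receptor for retinoic acid with the widest known expression in the body.

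Promoter sequences are shown for the receptors with the widest gap between the tissues, Rarb and Rxrg, and for Cyp26b1, whose gap ran the other way. They are the 250 bases before the transcription start in RefSeq (GRCm38.p6), read 5′ to 3′ on the strand of the gene, from chr14:16575477-16575726 (minus strand), chr1:167598112-167598361 and chr1:167618015-167618264 (plus strand), and chr6:84593811-84594060 (minus strand).
Rarb promoter: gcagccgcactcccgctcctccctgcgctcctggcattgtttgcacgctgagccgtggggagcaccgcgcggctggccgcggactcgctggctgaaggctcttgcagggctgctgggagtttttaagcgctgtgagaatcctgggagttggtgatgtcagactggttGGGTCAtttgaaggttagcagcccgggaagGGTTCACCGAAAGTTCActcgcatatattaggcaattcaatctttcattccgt
Rxrg promoter 1: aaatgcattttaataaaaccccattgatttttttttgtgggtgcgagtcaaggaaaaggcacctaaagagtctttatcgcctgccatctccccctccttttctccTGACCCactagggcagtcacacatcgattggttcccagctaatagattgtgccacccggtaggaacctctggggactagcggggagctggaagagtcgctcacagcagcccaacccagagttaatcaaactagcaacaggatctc
Rxrg promoter 2: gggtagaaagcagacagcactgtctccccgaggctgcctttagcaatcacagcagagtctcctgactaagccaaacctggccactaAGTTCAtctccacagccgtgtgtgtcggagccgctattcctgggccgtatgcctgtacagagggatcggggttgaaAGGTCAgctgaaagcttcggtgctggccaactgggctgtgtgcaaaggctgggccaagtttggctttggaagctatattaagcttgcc
Cyp26b1 promoter: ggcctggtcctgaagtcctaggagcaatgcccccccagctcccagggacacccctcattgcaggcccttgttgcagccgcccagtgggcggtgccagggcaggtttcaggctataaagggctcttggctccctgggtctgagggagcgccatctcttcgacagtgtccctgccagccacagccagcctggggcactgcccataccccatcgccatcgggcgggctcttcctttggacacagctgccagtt
Capitals mark every receptor hexamer found, which in Rarb are a lone hexamer and, nearer the start, a direct repeat with the bases between its copies, and in Rxrg lone hexamers.

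RAR and RXR pairs bind direct repeats of a hexamer, with a fixed number of bases between the copies. The hexamer AGGTCA, its variant AGTTCA, the variant GGGTCA and the variant GGTTCA were searched on both strands, alone and as direct repeats with 1, 2 or 5 bases between them. All 9 genes matched promoters in the RefSeq table, 17 in all. The Rarb promoter held the only direct repeat among these 17: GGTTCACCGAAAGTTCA, hexamers 5 bases apart, from base -53 to base -37 counted back from the start. A repeat with that spacing was present in 29 of 32851 promoters of the same length (0.0883%), one with 1 base in 0.164% and one with 2 bases in 0.174%. An element of this kind in the Rarb promoter is a textbook retinoic acid response element in mouse cells. At least 1 hexamer, alone or in a repeat, was in 7 of the 17 promoters and in 38.6% of all promoters, and the Cyp26b1 promoter window held none. These are matches of letters in a window and no measure of binding.

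The tissue labels were checked against cell type markers. All 12 kept markers of striatal projection neurons were higher in wild-type striatum than in wild-type cerebellum, and all 11 markers of cerebellar neurons and glia were lower. The mean log2 value of the striatal list was 11.32 in Q111 striatum and 11.46 in wild-type striatum, against 5.19 and 5.20 in Q111 and wild-type cerebellum. Array medians lay between 3.38 and 3.51, and the arrays of a group correlated at 0.983 to 0.993 over kept probe sets. In bulk tissue, fewer cells of a type and less RNA per cell cannot be told apart.

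**Figure D1:**
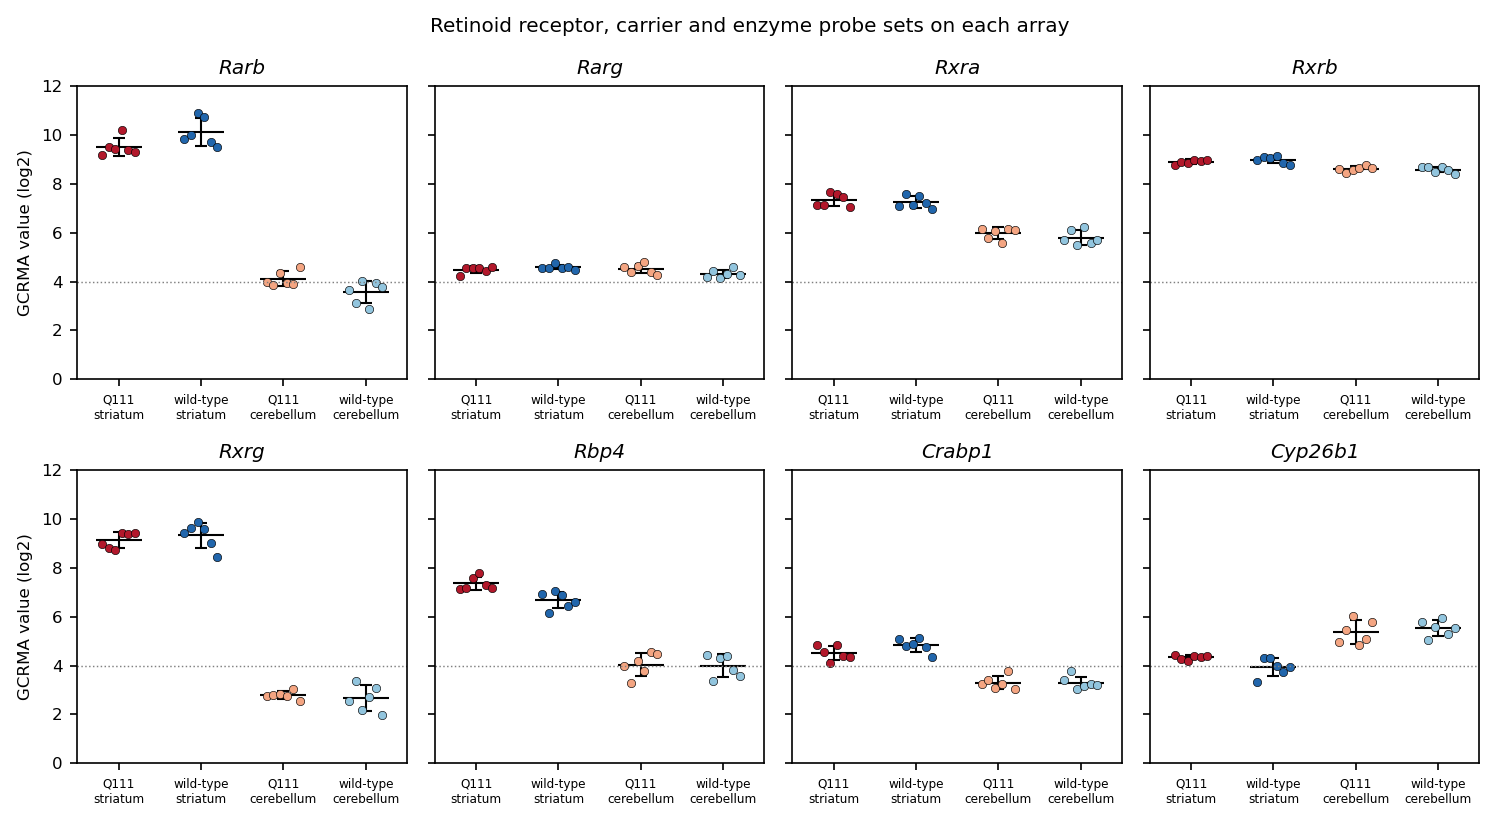
Log2 GCRMA values of the 8 kept probe sets on every array, in the order Q111 striatum, wild-type striatum, Q111 cerebellum and wild-type cerebellum (points, 6 arrays per group; bars, mean and SD; dotted line, the filter value of 4). Rarb, Rxrg, Rbp4, Crabp1 and Rxra lay higher in both striatum groups than in either cerebellum group without overlap, and Cyp26b1 lay lower.

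Between the tissues, the receptors Rarb and Rxrg stood out: both were strongly expressed in striatum and near background in cerebellum, in Q111 and in wild-type mice. Rbp4, Crabp1 and Rxra were higher in striatum by smaller steps, and Rxrb by less than 0.5 on the log2 scale. Cyp26b1 was the only kept member that passed the test as lower in striatum. In Q111 mice 7 of the 8 kept probe sets passed limma's test at an adjusted p of 0.05, 6 of them higher and 1 lower in striatum, against 71.4% of all kept probe sets (31.3% higher, 40.1% lower). In wild type all 8 passed, 7 higher and 1 lower, against 71.8% (30.6% higher, 41.2% lower). Passing was thus common among all genes, and the sizes of the differences say more. Rarb, Rxrg and Crabp1 were kept through striatum alone. Their part in the counts of this paragraph, and their p-values between the tissues, only describe the gap and are no separate support for it. The ranges of the 6 and 6 arrays did not overlap for 6 of 8 in Q111 and 7 of 8 in wild type, against 51.2% and 52.2% of all kept probe sets.

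Rarb is known as a receptor gene that retinoic acid itself induces, and its promoter held the direct repeat. Its values in Q111 striatum ran from 9.17 to 10.22 with a median of 9.40, and in Q111 cerebellum from 3.84 to 4.60 with a median of 3.98. In wild-type striatum they ran from 9.51 to 10.89 with a median of 9.92, and in wild-type cerebellum from 2.88 to 4.02 with a median of 3.72. Every striatal array lay far above every cerebellar one, and 9 of the 12 cerebellar arrays were under 4.

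The Rarb difference between striatum and cerebellum was 5.39 in Q111 (SE 0.24, n = 6 each; limma adjusted p 6.63e-16) and 6.54 in wild type (SE 0.24, n = 6 each; adjusted p 1.34e-17). Since most cerebellar values lie near background, the lower bound is given too: with Rarb values under 4 set to 4, the differences were 5.34 in Q111 (SE 0.20, adjusted p 2.25e-17) and 6.11 in wild type (SE 0.20, adjusted p 1.55e-18).

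Rxrg is an RXR receptor with a narrow expression in brain, where it pairs with RARs and other nuclear receptors. Its values in Q111 striatum ran from 8.73 to 9.44 with a median of 9.19, and in Q111 cerebellum from 2.54 to 3.05 with a median of 2.77. In wild-type striatum they ran from 8.43 to 9.88 with a median of 9.51, and in wild-type cerebellum from 1.99 to 3.38 with a median of 2.64. All 12 cerebellar arrays were under 4, so Rxrg signal was not distinguishable from background there.

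Because every cerebellar Rxrg value is near background, its difference between the tissues is a lower bound. With Rxrg values under 4 set to 4, striatum was higher by at least 5.13 in Q111 (SE 0.17, adjusted p 1.95e-18) and by at least 5.33 in wild type (SE 0.17, adjusted p 9.45e-19; n = 6 each). The values as deposited differed by 6.35 in Q111 and 6.67 in wild type (SE 0.22 each).

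**Figure D2:**
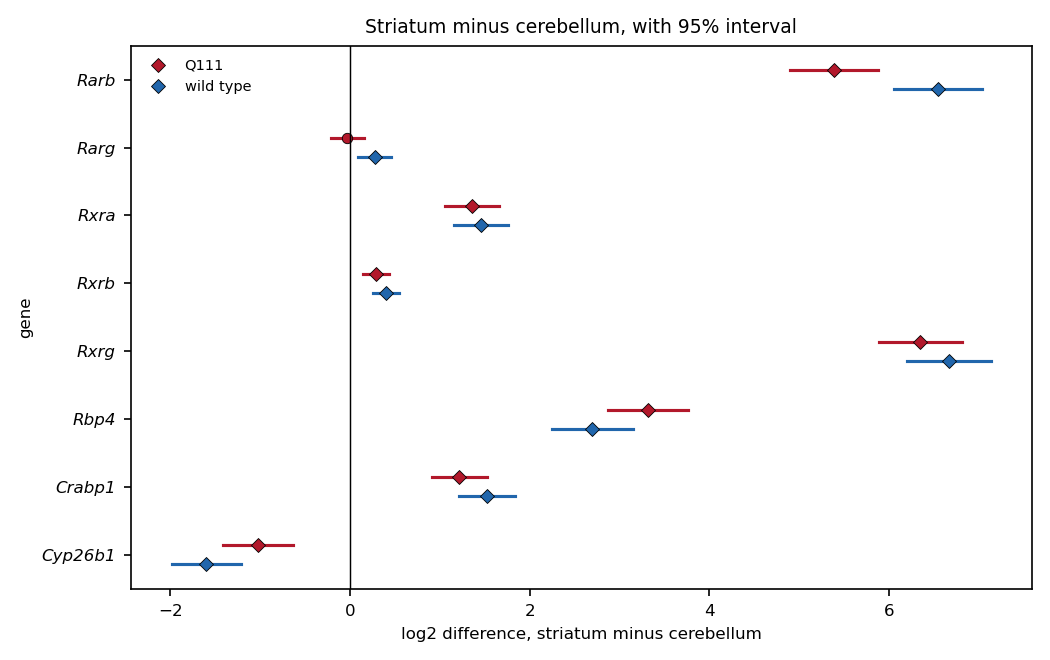
Log2 difference, striatum minus cerebellum, of each kept gene in Q111 and in wild-type mice (points with 95% interval from the limma fit, 6 arrays per group; diamonds passed an adjusted p of 0.05, the circle did not). Rarb and Rxrg lay above 5, Cyp26b1 below -1, and Rarg in Q111 at -0.03.

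Among the carriers, Rbp4, the blood and tissue carrier of retinol, ran from 7.12 to 7.78 in Q111 striatum and from 3.27 to 4.54 in Q111 cerebellum. In wild-type striatum it ran from 6.17 to 7.07 and in wild-type cerebellum from 3.36 to 4.45. Striatum exceeded cerebellum by 3.32 in Q111 (SE 0.22, 9.99-fold) and by 2.70 in wild type (SE 0.22, 6.49-fold), with no overlap. In each genotype 3 of the 6 cerebellar Rbp4 values were under 4, so these folds rest partly on values near background. Crabp1, which binds retinoic acid in the cytoplasm, was weak throughout, with means of 4.52 ± 0.30 in Q111 striatum, 4.83 ± 0.28 in wild-type striatum, 3.30 ± 0.26 in Q111 cerebellum and 3.31 ± 0.25 in wild-type cerebellum (SD, n = 6 each). All of its cerebellar values were under 4. Its striatal excess of 1.22 in Q111 and 1.52 in wild type became 0.52 and 0.83 with values under 4 set to 4, again a lower bound.

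The choroid plexus, the tissue that fills the ventricles with cerebrospinal fluid, makes transthyretin, the blood partner of Rbp4, and can enter a striatal dissection. A list of 9 kept choroid plexus and ependyma genes averaged 6.42 in Q111 striatum (range 5.40 to 7.87) and 6.62 in wild-type striatum (range 4.78 to 7.64), against 5.56 in Q111 and 5.43 in wild-type cerebellum. In wild-type striatum against wild-type cerebellum 8 of its 9 genes had a higher mean, and 4 passed as higher and 1 as lower, where 73.8% of all genes passed. Its part in the striatal levels of Rbp4 was not tested.

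Cyp26b1, the main enzyme that clears retinoic acid in brain, had the opposite order. Its values ran from 4.19 to 4.42 in Q111 striatum and from 4.84 to 6.04 in Q111 cerebellum, and from 3.34 to 4.31 in wild-type striatum and from 5.06 to 5.94 in wild-type cerebellum. Every striatal array was below every cerebellar one within each genotype. The difference, striatum minus cerebellum, was -1.02 in Q111 (SE 0.19, 2.03-fold lower; adjusted p 3.63e-05) and -1.60 in wild type (SE 0.19, 3.03-fold lower; adjusted p 5.42e-08). In wild-type striatum 4 of the 6 Cyp26b1 values were under 4, so the wild-type fold rests partly on values near background.

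The remaining receptors gave signal in both tissues. Rxra averaged 7.34 ± 0.27 in Q111 striatum, 7.25 ± 0.25 in wild-type striatum, 5.98 ± 0.24 in Q111 cerebellum and 5.79 ± 0.30 in wild-type cerebellum (SD, n = 6 each), and its ranges in the tissues did not overlap. It was higher in striatum by 1.36 in Q111 and by 1.46 in wild type (SE 0.15 each). Rxrb differed less between the tissues, with means of 8.91 ± 0.09, 8.98 ± 0.14, 8.61 ± 0.10 and 8.58 ± 0.12 in the same order, and differences of 0.29 in Q111 and 0.40 in wild type (SE 0.07 each). Neighbouring Rxrb groups overlapped.

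Rarg was close to the filter value everywhere, with means of 4.49 ± 0.14 in Q111 striatum, 4.59 ± 0.09 in wild-type striatum, 4.52 ± 0.19 in Q111 cerebellum and 4.31 ± 0.17 in wild-type cerebellum (SD, n = 6 each). In Q111 the Rarg difference between the tissues was -0.03 (SE 0.09, adjusted p 0.790). In wild type it was 0.28 (SE 0.09, adjusted p 0.00736), with overlapping ranges, and with replicate numbers 4 to 6 alone it was 0.17 with an adjusted p of 0.323. Whether the genotypes differ in this step is the interaction given further on.

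The order of the 4 group means, read with the array ranges, was the same for Rarb, Rxrg and Crabp1 in the striatum: wild type had the higher mean, and the Q111 and wild-type ranges overlapped. For Rbp4 the order was Q111 striatum, wild-type striatum, Q111 cerebellum and wild-type cerebellum, and only the cerebellar pair overlapped. Rxra had the same order as Rbp4, with overlap between genotypes in both tissues. Cyp26b1 was ordered wild-type cerebellum, Q111 cerebellum, Q111 striatum and wild-type striatum, with overlap between genotypes in both tissues.

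Between Q111 and wild-type striatum, no retinoid receptor, carrier or enzyme passed the test. The Rbp4 difference came nearest, with all 6 Q111 arrays above all 6 wild-type arrays, and the Rarb difference was of similar size in the other direction. At an adjusted p of 0.05, 0 of the 8 kept probe sets passed, and 2.87% of all kept probe sets did. At an unadjusted p under 0.05 the count was 4 of 8 (Rbp4, Rarb, Cyp26b1 and Crabp1), against 19% of all kept probe sets.

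Rbp4 read 7.12, 7.19, 7.59, 7.78, 7.30 and 7.17 on the arrays of Q111 striatum and 6.94, 6.17, 7.07, 6.89, 6.45 and 6.59 on those of wild-type striatum. The lowest Q111 value was just above the highest wild-type value. The difference was 0.68 (SE 0.22, 1.60-fold, 95% interval 0.23 to 1.12), with a limma adjusted p of 0.0861. Exact permutation of the arrays, two-sided, gave an unadjusted p of 0.00217, the smallest that 6 against 6 arrays allow. Ranges of the 6 and 6 arrays did not overlap for 2.39% of all kept probe sets in this comparison, and for 0.714% with Q111 higher. The adjusted p of Rbp4 changed with the setting. It was 0.0476 with only the striatal arrays in the fit and 0.0148 with values under 4 set to 4. This floor alters no striatal Rbp4 value, but it changes the pooled spread and, being put on every kept probe set, the adjustment. Calls over all kept probe sets rose with it from 595 to 711. The adjusted p of Rbp4 was 0.174 with no filter, 0.144 with replicate numbers 4 to 6 alone and 0.404 with numbers 1 to 3 alone.

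In the mouse cortex Rbp4 marks a class of deep-layer projection neurons, and genes of cortical neurons were higher in Q111 striatum as well. All 10 kept genes of that list had a higher mean in Q111 striatum than in wild-type striatum. Neurod6 and Fezf2 passed the test, as did 2.78% of all genes. The median difference of the list was 0.46, against -0.03 over all genes. Neurod6, a cortical transcription factor, averaged 6.99 in Q111 striatum and 5.86 in wild-type striatum, and Fezf2, which specifies deep-layer cortical neurons, averaged 4.81 in Q111 striatum and 4.11 in wild-type striatum. The mean of the list was 7.85 in Q111 striatum (range 7.16 to 8.22) and 7.39 in wild-type striatum (range 7.06 to 7.63). Its part in the Rbp4 difference was not tested. The choroid plexus list had 0 of 9 genes past the test in this comparison, and its median difference was -0.20. With 2.78% of all genes passing, a count of 0 among so few genes says little.

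Rarb averaged 9.50 ± 0.37 in Q111 striatum and 10.11 ± 0.57 in wild-type striatum (SD, n = 6 each). In Q111 striatum 5 of 6 arrays were below the wild-type mean, the exception being replicate 4 at 10.22, and the ranges overlapped. The difference was -0.61 (SE 0.24, 1.53-fold lower, 95% interval -1.10 to -0.12), with an adjusted p of 0.154 and an unadjusted exact permutation p of 0.0563. The list of striatal projection neuron genes ran from 10.96 to 11.60 in Q111 striatum and from 10.93 to 11.82 in wild-type striatum. Of its 12 genes 0 passed the test, where 2.78% of all genes passed, and only 3 had a higher mean in Q111 striatum. The list's median difference was -0.13, against -0.03 over all genes. Its part in the Rarb difference was not tested.

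Cyp26b1 averaged 4.34 ± 0.09 in Q111 striatum and 3.94 ± 0.37 in wild-type striatum (SD, n = 6 each), and 4 of the 6 wild-type arrays were under 4. All 6 Q111 arrays were above the wild-type mean, and the ranges overlapped. The difference was 0.40 (SE 0.19, adjusted p 0.244, unadjusted exact permutation p 0.0216), and it was 0.24 with Cyp26b1 values under 4 set to 4. Crabp1 differed by -0.31 (SE 0.15, adjusted p 0.263).

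The RXR receptors and Rarg differed little between genotypes in striatum, and none passed the test. Rxrg differed by -0.20 (SE 0.22, 95% interval -0.66 to 0.27, adjusted p 0.695), Rxrb by -0.07 (SE 0.07, 95% interval -0.22 to 0.07) and Rxra by 0.09 (SE 0.15, 95% interval -0.21 to 0.39). Rarg differed by -0.10 (SE 0.09, adjusted p 0.585). These intervals do not show that the genotypes are alike, and for Rxrg the interval leaves room for a difference of up to 0.66 on the log2 scale. In simulated arrays with each probe set's spread pooled over the 4 groups, the fit called 74% of probe sets changed 1.5-fold and 34% of those changed 1.25-fold. These shares are averages over randomly picked kept probe sets. They do not give the power for a single member, least of all one with a wide SE such as Rxrg.

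**Figure D3:**
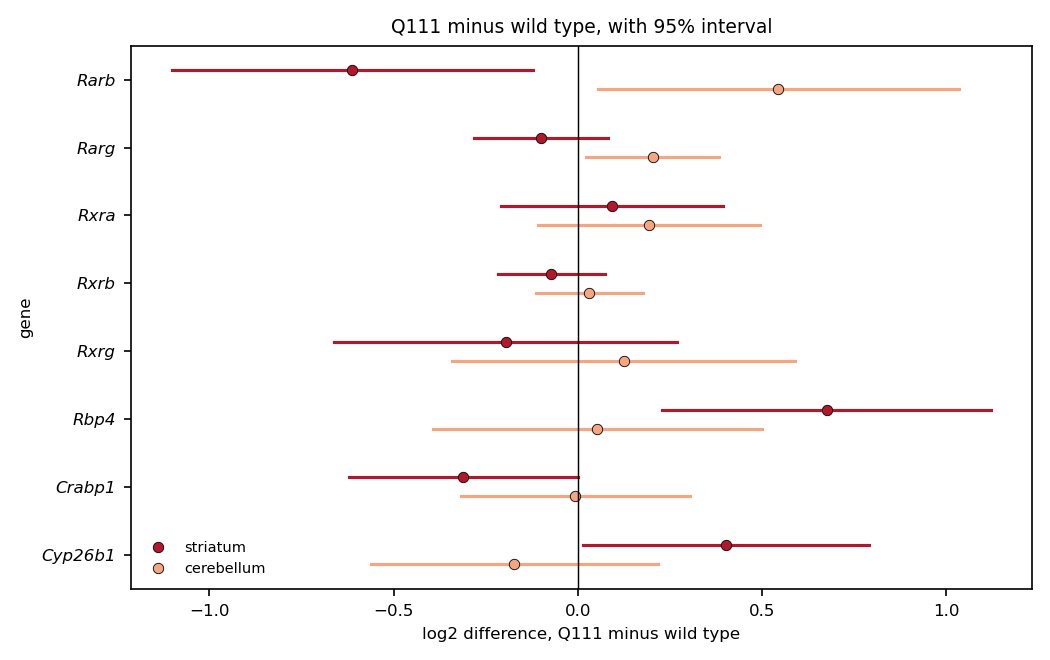
Log2 difference, Q111 minus wild type, of each kept gene in striatum and in cerebellum (points with 95% interval from the limma fit, 6 arrays per group; circles did not pass an adjusted p of 0.05). In striatum Rbp4 lay at 0.68 and Rarb at -0.61, and in cerebellum Rarb lay at 0.54.

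In cerebellum no member passed the test between Q111 and wild type either: 0 of 8 at an adjusted p of 0.05, against 0.458% of all kept probe sets. Rarb and Rarg had an unadjusted p under 0.05, 2 of 8 against 13.8% of all kept probe sets. Rarb averaged 4.11 ± 0.30 in Q111 cerebellum and 3.57 ± 0.46 in wild-type cerebellum (SD, n = 6 each), all 6 Q111 arrays being above the wild-type mean. The difference was 0.54 (SE 0.24, adjusted p 0.300, unadjusted exact permutation p 0.0303) at levels close to background, and it was 0.16 with Rarb values under 4 set to 4. Rarg differed by 0.20 (SE 0.09, adjusted p 0.296).

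The Rbp4 mean was 4.04 ± 0.47 in Q111 cerebellum and 3.98 ± 0.47 in wild-type cerebellum (SD, n = 6 each), and the genotypes differed by 0.05 (SE 0.22, adjusted p 0.948). The Cyp26b1 mean was 5.36 ± 0.48 in Q111 cerebellum and 5.53 ± 0.32 in wild-type cerebellum, and they differed by -0.17 (SE 0.19, adjusted p 0.731). Rxra differed by 0.19, Rxrg by 0.12, Rxrb by 0.03 and Crabp1 by -0.01, each with an adjusted p above 0.5. Outside the fit, the Rxra probe set 1425762_a_at averaged 2.57 in Q111 cerebellum and 2.60 in wild-type cerebellum without overlap, a step of -0.03 near background. Among kept probe sets in cerebellum 1.12% did not overlap.

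The difference between the genotype effects in the tissues was tested as an interaction, striatum minus cerebellum, and 0 of the 8 passed, against 0.0868% of all kept probe sets. Rarb differed by -0.61 in striatum and by 0.54 in cerebellum, an interaction of -1.16 (SE 0.34, 95% interval -1.85 to -0.46, unadjusted p 0.00217, adjusted p 0.164). Most cerebellar Rarb values were under 4. With Rarb values under 4 set to 4, the interaction was -0.77 with an adjusted p of 0.292. Such a floor is bound to shrink a difference between low values, and the part of background in the interaction was not tested. Rbp4 had an interaction of 0.62 (SE 0.31, adjusted p 0.498), Cyp26b1 of 0.57 (SE 0.27, adjusted p 0.479) and Rarg of -0.30 (SE 0.12, adjusted p 0.398). At an unadjusted p under 0.05 the count was 3 of 8, against 10.1% of all kept probe sets.

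Genotype differences were also taken within replicate numbers 1 to 3 and within 4 to 6. In striatum the Rbp4 difference was 0.57 among numbers 1 to 3 and 0.78 among numbers 4 to 6. All 6 Q111 arrays lay above all 6 wild-type arrays, so any split gives that order without overlap. The sets are thus no separate support for Rbp4. Rarb was lower in both sets, by -0.87 and -0.35, Crabp1 by -0.42 and -0.20, and Cyp26b1 was higher by 0.31 and 0.49. Rxrg changed sign, at -0.81 in numbers 1 to 3 and 0.42 in numbers 4 to 6, and Rxrb did so on a smaller scale, at -0.20 and 0.05. Striatal ranges also did not overlap for Rarb, Rxrg and Rxrb in numbers 1 to 3, and for Cyp26b1 in numbers 4 to 6. With 3 against 3 arrays ranges separate far more easily by chance than with 6 against 6. The share over all kept probe sets was not taken for these sets, so the separations are descriptions only.

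The striatal projection neuron list changed sign in the same way as Rxrg. It averaged 11.18 in Q111 and 11.64 in wild-type striatum over numbers 1 to 3, and 11.47 in Q111 and 11.29 in wild-type striatum over numbers 4 to 6. A list of 6 kept thalamus genes had the opposite order, at 6.91 in Q111 and 5.82 in wild-type striatum over numbers 1 to 3, and 6.03 in Q111 and 6.89 in wild-type striatum over numbers 4 to 6. Their part in the Rxrg values was not tested. No source used here says what the number sets stand for.

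**Figure D4:**
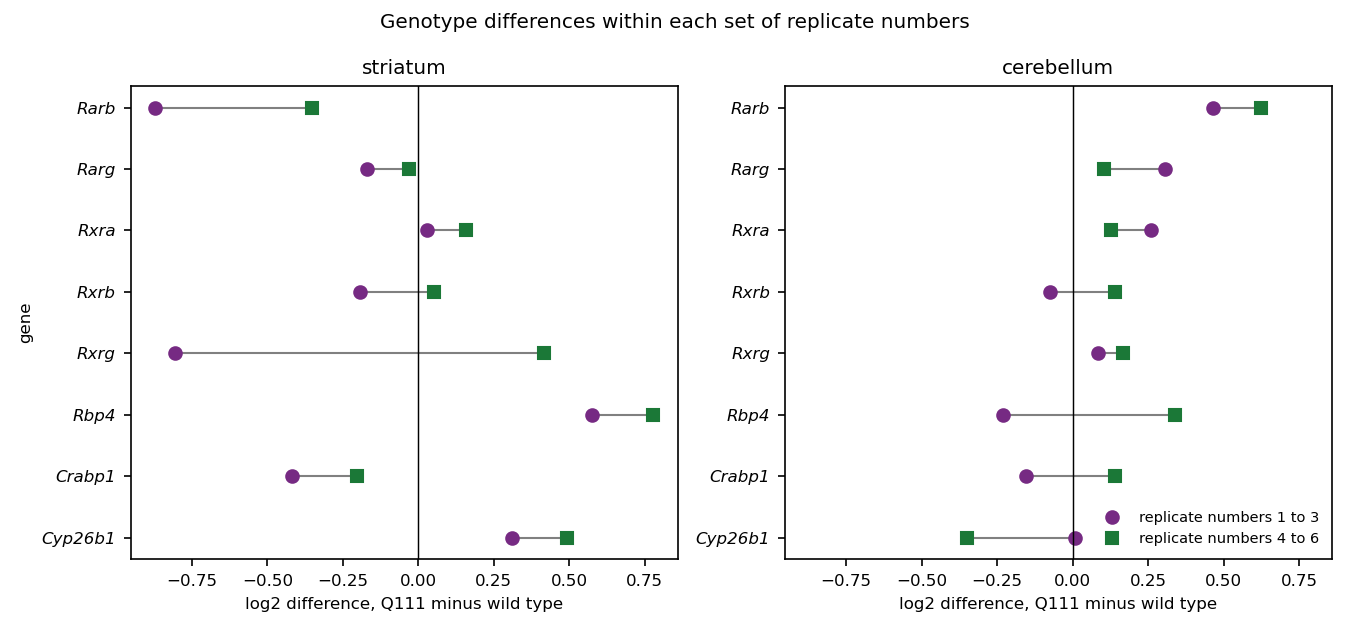
Log2 difference, Q111 minus wild type, of each kept gene within replicate numbers 1 to 3 (circles) and 4 to 6 (squares), in striatum and cerebellum; each point is a difference of means of 3 and 3 arrays. In striatum Rbp4, Cyp26b1, Rarb and Crabp1 kept their side of 0 in both sets, and Rxrg crossed it.

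The other genes of the pathway were read from lists of uptake, synthesis and breakdown genes. Of 28 uptake and synthesis genes 26 were on the array and 11 were kept. Between genotypes 0 of the 11 passed in striatum (median difference 0.02, against -0.03 over all 10766 genes) and 0 passed in cerebellum (median -0.03, against -0.05). The shares of all genes passing were 2.78% in striatum and 0.446% in cerebellum, so these counts of 0 say little. Between striatum and cerebellum, 2 passed as higher and 9 as lower in Q111, and 1 as higher and 9 as lower in wild type. The wild-type median difference was -0.54, against -0.08 over all genes, of which 73.8% passed.

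Aldh1a1, which makes retinoic acid from retinal, averaged 7.57 in Q111 striatum and 7.38 in wild-type striatum, against 11.14 in Q111 cerebellum and 10.78 in wild-type cerebellum. It was lower in striatum by -3.57 in Q111 and -3.40 in wild type (SE 0.20 each). Aldh1a2, another retinal dehydrogenase and a marker of meninges, averaged 1.82 and 1.79 in Q111 and wild-type striatum and 5.16 and 4.71 in Q111 and wild-type cerebellum. Beside it, all 10 kept genes of the meninges list, which includes Aldh1a2, were lower in wild-type striatum than in wild-type cerebellum, and the part of meninges in these levels was not tested. Rdh5 and Rdh11, retinol and retinal converting enzymes, were lower in wild-type striatum by -2.76 (SE 0.27) and -1.48 (SE 0.12).

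Ttr, the partner of Rbp4 in blood and the main product of choroid plexus, was the only gene of this list that passed as higher in wild-type striatum, by 4.50 (SE 1.21). It averaged 14.83 ± 1.38 in Q111 striatum and 14.59 ± 2.00 in wild-type striatum (SD, n = 6 each), against 10.17 and 10.09 in Q111 and wild-type cerebellum. Its spread within groups was far wider than that of Rbp4, and Ttr differed by 0.23 between genotypes in striatum (SE 1.21, adjusted p 0.947).

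Fabp5, which carries retinoic acid and fatty acids in cells, was the only kept gene of the 4 in the breakdown and binding list. It fell to 11.43 ± 0.14 in Q111 striatum, against 11.75 ± 0.09 in wild-type striatum (SD, n = 6 each), a difference of -0.32 (SE 0.09, adjusted p 0.0426). The call was lost in 5 of 13 alternatives that kept all arrays or a whole number set: without the filter (Fabp5 adjusted p 0.0674), after quantile normalization (0.0705), after median centring (0.0945), and with replicate numbers 1 to 3 alone (0.225) or 4 to 6 alone (0.151). It was also lost when any of 12 arrays was left out in turn, namely replicates 1, 2, 4, 5 and 6 of Q111 striatum, the same numbers of wild-type striatum, replicate 3 of Q111 cerebellum and replicate 6 of wild-type cerebellum, the Fabp5 difference staying between -0.36 and -0.29 and its highest adjusted p being 0.0844. In cerebellum Fabp5 differed by -0.14 (adjusted p 0.468). Markers of other cell types differed in the same striatal comparison. All 5 kept markers of endothelial and mural cells had a lower mean in Q111 striatum, 2 of them passing, and the list averaged 7.40 in Q111 striatum (range 7.32 to 7.58) and 7.77 in wild-type striatum (range 7.62 to 8.05). Of 8 microglia markers 3 passed as higher and 1 as lower, with list means of 7.68 in Q111 striatum and 7.48 in wild-type striatum. Only 4 of the 8 had a higher mean in Q111 striatum, and the median difference of that list was 0.003. Of all genes 2.78% passed in this comparison. Their part in the Fabp5 difference was not tested. It was higher in striatum than in cerebellum by 1.35 in Q111 and 1.53 in wild type (SE 0.09 each).

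Coregulators carry out what the receptors command, and all 14 on the array of 17 listed were kept. In Q111 striatum 1 of 14 fell and 0 rose, against 2.78% of all genes called, with a list median of -0.09. Carm1, a methyltransferase that acts with coactivators, averaged 8.99 ± 0.06 in Q111 striatum and 9.33 ± 0.18 in wild-type striatum, a difference of -0.34 (SE 0.08, adjusted p 0.0314). The Carm1 adjusted p was 0.0729 after median centring. It was between 0.0508 and 0.0709 when replicate 1, 3, 5 or 6 of Q111 striatum or replicate 1, 3, 4 or 5 of wild-type striatum was left out. In cerebellum 0 of 14 passed, against 0.446% of all genes, and Carm1 differed by 0.06. Ncoa3, a coactivator of nuclear receptors, differed by -0.60 in striatum (SE 0.17, adjusted p 0.0597). Between wild-type tissues 8 of 14 had a higher mean in striatum, and 4 passed as higher and 4 as lower, where 73.8% of all genes passed, among them Carm1 at 1.46 and the acetyltransferase Kat2b at -1.94.

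Of 13 receptors that pair with RXR, 12 were on the array and 4 were kept: Nr4a1, Nr4a2, Thra and Ppard. Between genotypes 0 of 4 passed in either tissue, where 2.78% of all genes passed in striatum and 0.446% in cerebellum. Nr4a2 averaged 5.96 in Q111 cerebellum and 7.37 in wild-type cerebellum, a difference of -1.41 (SE 0.32) whose adjusted p of 0.05002 was just over the threshold. Nr4a1, an activity-induced receptor that pairs with RXRs in striatum, averaged 9.59 in Q111 striatum and 10.07 in wild-type striatum, a difference of -0.49 (SE 0.28, adjusted p 0.372). It was higher in striatum than in cerebellum by 2.99 in Q111 and 2.81 in wild type (SE 0.28 each).

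Genes known as retinoic acid targets in mouse cells or brain numbered 32, of which 29 were on the array and 17 were kept. Between genotypes 0 of 17 passed in striatum (median 0.03) and 0 in cerebellum (median -0.03). Of all genes 2.78% passed in striatum and 0.446% in cerebellum, so a count of 0 among so few genes says little. The nearest in striatum were Camk2a, a synaptic kinase, at 0.41 (SE 0.14, adjusted p 0.114) and Bdnf, a growth factor, at 0.69 (SE 0.28, adjusted p 0.169). Drd2, the dopamine receptor of striatopallidal neurons, averaged 11.23 in Q111 striatum and 11.48 in wild-type striatum, a difference of -0.25 (SE 0.18, adjusted p 0.476).

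Between wild-type tissues 10 of the 17 targets had a higher mean in striatum, and 7 passed as higher and 5 as lower, close to the 73.8% of all genes that passed. Drd2 was higher by 9.42, Nrgn, a calmodulin-binding protein of dendrites, by 8.73, and Meis2, a transcription factor of the striatal lineage, by 8.33. Among the lower ones, Ret differed by -3.92, Bdnf by -2.88 and Zfp423, a transcription factor that helps retinoic acid receptors, by -2.76. Drd2 also stands in the list of striatal projection neuron markers, whose 12 kept genes were all higher in striatum.

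The likeness of other genes to each member was measured as the Pearson correlation over the 24 arrays, which form separate tissue clusters, so it mostly restates the tissue difference. Correlations after subtracting group means are given beside it, and all are descriptions over arrays that share normalization. Nearest to Rxrg were Mn1 (0.997, and 0.714 after group means), Serpina9 (0.997, 0.766) and Mme (0.997, 0.754). Nearest to Rarb were Homer1 (0.993, 0.611), Slmap (0.993, 0.748) and Arpp19 (0.993, 0.646), and nearest to Rbp4 were Mrtfa (0.977, 0.487), Skil (0.973, 0.559) and Rapgef2 (0.972, 0.303). Nearest to Cyp26b1 were Ssbp3 (0.961, 0.761), Trpc4ap (0.948, 0.727) and Rab27a (0.942, 0.716).

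Nearest to Crabp1 were Srebf2, Asic4 and Rhbdl3 at 0.963 to 0.958, and nearest to Rxra were Mapk4, Smyd5 and Dlgap2 at 0.962 to 0.953. Nearest to Rxrb were Tctn3, Rbbp7 and Snx25 at 0.943 to 0.926, and Rarg, with little difference between groups, reached 0.713 with Tmem125, 0.692 with Tvp23b and 0.662 with Med18. Among the members themselves, after group means, the pairs Rxrg with Rxrb (0.736), Rxrg with Crabp1 (0.600) and Rxra with Rxrb (0.513) were the highest. Rarb and Rxrg, alike between tissues, correlated at 0.177 within groups.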

How the data were processed

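The authors deposited 1 table of GCRMA values on a log scale for 24 arrays, per the submitters' processing notes, with the version and the log base not given in the sources used here; the deposited values ran from -0.77 to 16.33 and were read as log2. RNA was extracted with Trizol and cleaned on Qiagen columns, per the labels' protocols. Of 45101 probe sets, 64 controls were left out, and 20738 (46%) with a mean of at least 4 in striatum or cerebellum were tested. Symbols came from the platform annotation, where 932 probe sets have several symbols and 9160 none, and 34741 Entrez identifiers matched the RefSeq table, changing 0 symbols. A limma model (limma 3.58.1, R 4.3.3) with a mean per group was fitted to all 24 arrays, leaving 20 residual degrees of freedom beside 3.22 from the prior. Adjusted p-values are limma's with Benjamini-Hochberg adjustment over the 20738, and the threshold was 0.05. Intervals are 95% from that fit.

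Where a listed gene had more than 1 probe set, the brightest on average represented it (10766 genes). All members are named, with up to 4 listed genes past the threshold per comparison (or up to 2 as values) and the 3 genes most like each member. The members and lists were chosen with earlier results of these data known. The fit was tested on simulated data for Q111 against wild-type striatum, where 4.43% of its calls were false. The simulated scatter was independent between probe sets and arrays, so this share need not hold for the real arrays. The arrays' number limits the precision. Alternatives covered the filter, normalization, variance prior, array weights, a term for replicate number or for number set, each number set or comparison alone, a floor, the threshold and leaving out each array. List counts under these were added after seeing the data. The floor set values under 4 to 4 in every kept probe set, also where only a member is named.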

Additional observations from a re-analysis of the deposited data

Results flagged for a closer look

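On array 4 of Q111 striatum, Rarb (1454906_at) stood high at 10.22, while the other 5 arrays of the group lay between 9.17 and 9.51. Its gap to the nearest array was 0.68 of the group's range. On array 1 of wild-type striatum, the Rarg probe set left out for low signal (1419416_a_at) read 2.53, with a gap of 0.63 of the range, at a level near background. In all, 48 groups of 6 arrays were tested in this way, and chance marks about 1 in 20.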

How the results depend on the processing

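Between the tissues, 7 of 8 (Q111) and 8 of 8 (wild type) kept probe sets of the 9 genes were called, and leaving out each array in turn gave 7 to 7 and 8 to 8. Between genotypes and for the interaction the count was 0, and 0 to 0 with each array left out. It was 1, Rbp4, in striatum with only the groups compared in the fit, with values under 4 set to 4, and at a threshold of 0.10. Rbp4 in striatum ran from 0.57 to 0.75 with arrays left out (adjusted p 0.0615 to 0.153). With the replicate block these counts were 0 between genotypes and for the interaction, 7 in Q111 and 8 in wild type. No label says that a replicate number marks a shared mouse or day, and it is not known whether tissues were paired. Correlations of same-numbered deviations ran from -0.409 to -0.0881 for the genotypes in striatum, -0.423 to 0.119 for those in cerebellum, -0.0547 to 0.142 for the Q111 tissues and -0.0043 to 0.183 for the wild-type tissues, and an array correlated best with its own number for 0 of 6 in each genotype comparison, 2 of 6 between the Q111 tissues and 3 of 6 between the wild-type tissues.

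Directions turned as follows. With replicate numbers 4 to 6 alone, Rxrb in striatum was 0.05 and Rxrg 0.42, Crabp1 in cerebellum was 0.14, Rarg between Q111 tissues was 0.03, and the interactions of Rxrg and Rxra were 0.25 and 0.03. With numbers 1 to 3 alone, Rxrb in cerebellum was -0.08, Rbp4 -0.23 and Cyp26b1 0.01. Crabp1 in cerebellum was 0.01 after quantile normalization and 0.09 after median centring. With arrays left out, the cerebellar differences ran from -0.01 to 0.06 for Rxrb, -0.01 to 0.27 for Rxrg, -0.07 to 0.21 for Rbp4 and -0.10 to 0.08 for Crabp1, and Rarg between Q111 tissues from -0.08 to 0.03. The cause was not tested.

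Among list counts in Q111 striatum, the retinoid pathway count of 1 was 0 with no filter, quantile normalization, median centring or numbers 4 to 6 alone, and 0 to 1 with arrays left out. With numbers 1 to 3 alone the count stayed at 1 through another gene, since Fabp5 was not called there. The coregulator count of 1 was 0 with median centring or either number set alone, 2 with the replicate block or a threshold of 0.10, and 0 to 2 with arrays left out. In Q111 cerebellum the count of RXR partners was 1 (Nr4a2) with a filter at a mean of 5, the trended prior, array weights, values under 4 set to 4 or a threshold of 0.10, and 0 to 1 with arrays left out. The pathway count there and the coregulator interaction were also 0 to 1 with arrays left out. With numbers 1 to 3 alone the coregulator count between tissues was 4 in Q111 and 5 in wild type, against 7 and 8. Over all kept probe sets, median centring moved the share lower in Q111 from 70.9% to 42.7% of calls in striatum and from 78.9% to 28% in cerebellum. Values with every array at the floor of 4 in both groups were left out.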
